A study of Mus musculus with 16 samples.

Results

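The genes described here are 108 unnamed mouse transcripts, chosen because they had counts in size-selected cells of the spleen and few or none in whole spleen. They carry provisional symbols, either Gm followed by digits (75 genes) or a RIKEN cDNA name ending in Rik (33 genes). A gene was a member where its mean was at least 10 counts over the 8 size-selected samples and at most 2 counts over the 8 whole spleen samples. The count table holds 54838 genes, of which 29287 are unnamed, and 1490 of those reached the minimum in the size-selected samples. A further 818 named genes lay within the same count limits.

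The samples are spleens of C57BL/6 mice, 4 male and 4 female, each number giving 1 size-selected and 1 whole spleen sample. Per the labels, minced spleens were digested with enzymes, red blood cells were lysed, and the material held back by a cell strainer became the size-selected sample, which the labels call spleen glia. No age, genotype or treatment is given, no cell type was sorted, and the labels describe no separate preparation for whole spleen. The study asked which genes are enriched in spleen glia over whole spleen.

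Size-selected samples held markers of several cell types. Over 15 glial markers the summed level ran from 97.8 to 819 CPM (counts scaled to a common library size; sums over genes use total counts) in the size-selected samples and from 1.90 to 11.7 CPM in whole spleen. The sums for 12 fibroblast markers were 1500 to 4572 CPM against 8.15 to 86.4 CPM, those for 10 smooth muscle markers 1002 to 4041 CPM against 13.8 to 87.6 CPM, and those for 11 mesothelial markers 40.7 to 307 CPM against 1.89 to 6.91 CPM. B cell markers stayed abundant in the size-selected samples, at 870 to 3708 CPM over 7 genes. Total counts were 13119992 to 19944440 per size-selected sample and 12153770 to 16282454 per whole spleen sample.

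The stroma of the spleen is made of fibroblastic reticular cells, which secrete the chemokines CCL19 and CCL21, of smooth muscle in the capsule and trabeculae, and of a mesothelium that covers the organ. Sympathetic nerves enter along the arteries with their glia. Unnamed loci are often long non-coding RNAs, which tend to be expressed at low levels in few cell types and often lie beside or opposite to a protein-coding gene. Others are pseudogenes, recent copies of named genes, or readthrough transcripts that join the exons of adjacent genes.

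Some members, Gm21541 and Gm12407 among the 8 with a mean of at least 50 counts, are copies of chemokine genes, and the sequences that set them apart are shown before the values. Of the 108 members, 11 had an annotated transcript at least 95% identical, over at least 50% of its length, to a transcript of a gene elsewhere in the genome (GENCODE release M21, GRCm38). Gm21541 (chr4:41903610-41904743, plus strand, 4 exons) is protein coding and is listed as Ccl21d in RefSeq. Its 870-base transcript matched that of Ccl21a at 99.3%, with 6 differences, of which 2 lay in the coding part. Gm13304 (chr4:42114817-42115917, plus strand) matched Gm21541 at 100% over its whole 837 bases. Gm12407 (chr4:41791989-41793601, minus strand) is an unprocessed pseudogene of 324 exonic bases that matched the coding part of Ccl19 at 99.4%, with 2 differences. The stretches below are 120 coding bases of each member and of its named gene, counted from 1 at the 5′ end of the stretch, with the differing bases in capitals.
Gm21541: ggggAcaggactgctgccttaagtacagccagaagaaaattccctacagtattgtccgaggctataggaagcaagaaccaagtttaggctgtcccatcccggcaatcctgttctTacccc
Ccl21a: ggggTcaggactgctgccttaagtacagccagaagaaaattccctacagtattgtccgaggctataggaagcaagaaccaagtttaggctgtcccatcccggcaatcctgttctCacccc
Gm12407: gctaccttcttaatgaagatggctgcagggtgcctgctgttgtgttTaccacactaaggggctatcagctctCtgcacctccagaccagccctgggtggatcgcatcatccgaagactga
Ccl19: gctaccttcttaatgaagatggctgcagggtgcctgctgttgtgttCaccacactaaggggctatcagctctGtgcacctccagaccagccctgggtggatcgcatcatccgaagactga
Written with the named gene first, the differences are T5A and C115T for Gm21541, and C47T and G73C for Gm12407. In most positions a short read from these genes could have come from the member or from the named gene, and the estimated counts of such members are uncertain.

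Ccl21a had a mean of 5872 counts in the size-selected samples and 81.4 in whole spleen, and Ccl19 a mean of 4817 and 40.4. Gm21541 had a lowest value of 0, a median of 7.61 and a highest value of 15.3 CPM in the size-selected samples. It was at 0 in samples 445 and 447 and highest in 436. Gm13304 had 57.55 counts in 445 and 52.43 counts in 447, the samples in which Gm21541 was at 0, and was itself at 0 in 407, 435, 436 and 460. Summed, the counts of the 2 copies were 1.63% (sample 460) to 3.01% (sample 436) of those of Ccl21a, and no sample lacked both. The split between the 2 copies differed between samples far more than their sum relative to Ccl21a did.

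**Figure D1:**
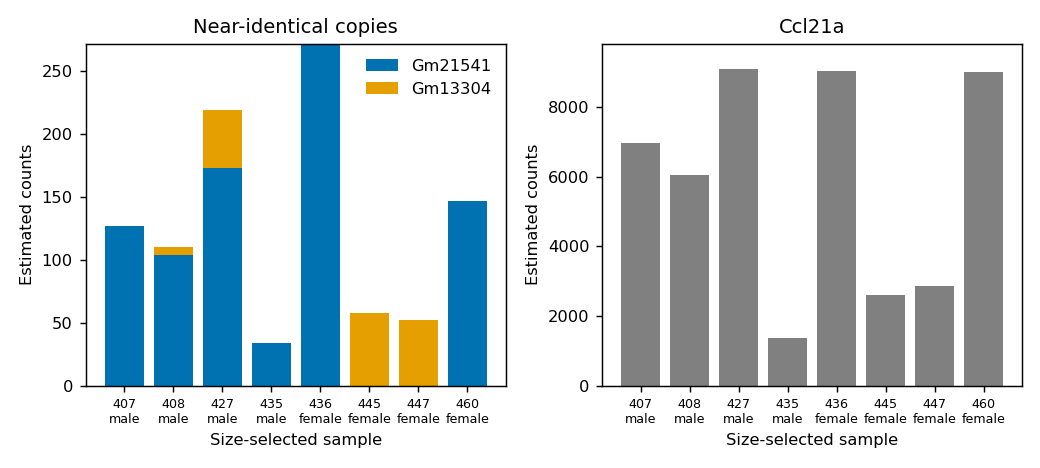
Estimated counts in each size-selected sample (number and sex on the horizontal axis) of the near-identical copies Gm21541 and Gm13304, stacked (left), and of Ccl21a (right). Samples 445 and 447 have counts for Gm13304 alone, and the stacked sum is 1.63% to 3.01% of Ccl21a in the 8 samples.

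Gm12407 was found in all 8 size-selected samples, with a lowest value of 1.37, a median of 3.46 and a highest of 7.84 CPM, and at 0.742% to 1.44% of the counts of Ccl19. In whole spleen it had at most 4.21 counts in a sample and was at 0 in 5 samples. The other copies of named genes were lower. Gm21451 is an unprocessed pseudogene (chr14:69390854-69480287) identical to Loxl2, a collagen cross-linking enzyme, over 2348 aligned bases. It had 0% to 14.8% of the Loxl2 counts and was at 0 in samples 408, 445 and 447. Gm5454 is a processed pseudogene on chromosome 13 (chr13:103356252-103357704) that matched the transcription factor gene Etv1 at 98.2%, with 2.20% to 22.9% of its counts. Gm14322, Gm14418 and Gm14403 form a run of similar zinc finger genes on chromosome 2.

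None of the values of the 108 members in size-selected against whole spleen samples is a test, since the members were chosen by that difference. Their mean counts in the size-selected samples ran from 10 to 167.75 with a median of 16.3, and the median of their whole spleen means was 0.628. In all 8 size-selected samples 97 members had counts, and 19 members were at 0 in all 8 whole spleen samples. The highest single whole spleen count of a member was 12. The lowest size-selected count was above the highest whole spleen count for 72 members, and for 26.4% of all genes with a mean of at least 10 in the size-selected samples. Relative to total counts, the 69 members with more than 3 counts over whole spleen were 5.47 to 211 times as high in the size-selected samples. Setting the other members to a floor of 3 counts over the 8 whole spleen samples, the median over all 108 was 27.0-fold. Fewer cells of a type and less RNA per cell cannot be told apart in these bulk samples.

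Just inside the minimum lay 1810059H22Rik at a mean of 10 counts, Gm10516 at 10.1 and 1700071M16Rik at 10.2. Just outside lay Gm5784 at 9.83, Gm26840 at 9.74 and Gm13305 at 9.51. The whole spleen limit was met exactly, at a mean of 2.00, by 4632428C04Rik, Gm15261 and Gm15912. It was passed at 2.125 by 2700046G09Rik, 5730409E04Rik and Gm13387. The limits therefore fell within a continuous range of levels.

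By annotation the members were 25 antisense RNAs, 24 lincRNAs (long intergenic non-coding RNAs), 24 protein-coding genes, 14 processed transcripts and 13 TEC loci, a label for unspliced loci that await experimental evidence. The remaining 8 were 6 pseudogenes and 2 sense intronic RNAs. Antisense RNAs made up 23.1% of the members and 13.0% of the other 1382 unnamed genes that reached the minimum, and lincRNAs 22.2% against 13.2%. Processed pseudogenes made up 2.78% of the members and 19.6% of the other unnamed genes. The median exonic length was 2450.5 bases, and 19 members had 1 exon. Of the protein-coding members, 6 were readthrough genes, among them Gm45837, which joins Pde2a and Arap1, and Gm20683, which joins Rhbdl1 and Rhot2.

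In CPM, which is not corrected for length, the highest member was 1500015O10Rik (chr1:43730602-43742578, plus strand, protein coding), which RefSeq lists as Ecrg4, the precursor of a secreted peptide. Its lowest, median and highest levels were 3.05, 10.5 and 18.4 CPM, and its counts were whole numbers in every sample. Sample 435 was the lowest at 50 counts and sample 407 the highest at 268, while whole spleen had at most 3 counts. Next by mean CPM were Gm21541 and Gm2115 (chr7:84528954-84583531, plus strand, protein coding), for which RefSeq gives the synonym Ctxnd1 and which had 1.04, 4.23 and 11.9 CPM. Gm2115 was highest in sample 436 and lowest in 447. Gm36569 (chr3:79859293-79886806, minus strand), an antisense RNA that shares 73.7% of its exonic bases with exons on the other strand, had 1.59, 3.30 and 5.21 CPM. In the authors' deposited table, which lists 78 of the 108 members, size-selected means ran from 0.201 to 47.9 TPM, a level per length of transcript. In that table Gm12407 had the highest level, 47.9 TPM, ahead of 1500015O10Rik at 19.3 TPM and Gm13861 at 15.7 TPM.

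Gm45837 was the fourth by mean CPM and the most uneven of all members. It had 115.1 counts in sample 427, 322.48 in 435 and 96.08 in 436, and 0 in the other 5 size-selected samples and in all 8 whole spleen samples. None of its 3 values was a whole number, and 95.6% of its exonic bases belong to other genes on the same strand. Pde2a itself, the gene of a cyclic nucleotide phosphodiesterase, had means of 2205 and 1760 counts in the 2 groups. Across the size-selected samples the 2 genes had r = -0.82 (exact permutation p = 0.0119, adjusted p = 0.262, n = 8). The authors' deposited table lists the identifier of Gm45837 under the name Pde2a, where the log2 fold change is 20.8 (adjusted p-value 1.73e-11).

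The coefficient of variation (CV, the standard deviation as a percentage of the mean) over the 8 size-selected samples had a median of 55.9% over the members. It was 57.0% over named genes within the same count limits, 36.2% over other unnamed genes and 24.5% over all genes tested. The median level of these sets was 1.05 CPM for the members, 1.96 CPM for the named genes, 1.82 CPM for the other unnamed genes and 20.3 CPM for all genes, and the CV was not compared at matched levels. Counting error alone gives a CV of 24.8% at the members' median count. The largest values were 169% for Gm45837, 160% for the readthrough gene Gm45062 and 130% for Gm13304, all of which had values of 0 and no whole-number counts. The smallest were 21.4% for Gm16685, 21.8% for B430119L08Rik and 23.7% for Gm35558. Gm16685, an antisense RNA to the lymphocyte survival cytokine gene Il7, had 1.46, 2.14 and 2.88 CPM as its lowest, median and highest levels. Fewer than 50% of the size-selected values were whole numbers for 36 members, whose reads were thus shared out with other transcripts.

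Sample 427 had the highest level for 53 of the 108 members, and samples 408 and 435 had the lowest for 36 and 34. The members' summed level ran from 101 CPM in sample 408 to 259 CPM in sample 427, and from 3.10 to 7.60 CPM in whole spleen. Sample 427 also had the lowest B cell score of the 8, at 6.04 (mean log2 CPM of the 7 markers), and sample 408 the highest, at 8.11. The part of the B cell content in the members' levels was not tested.

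**Figure D2:**
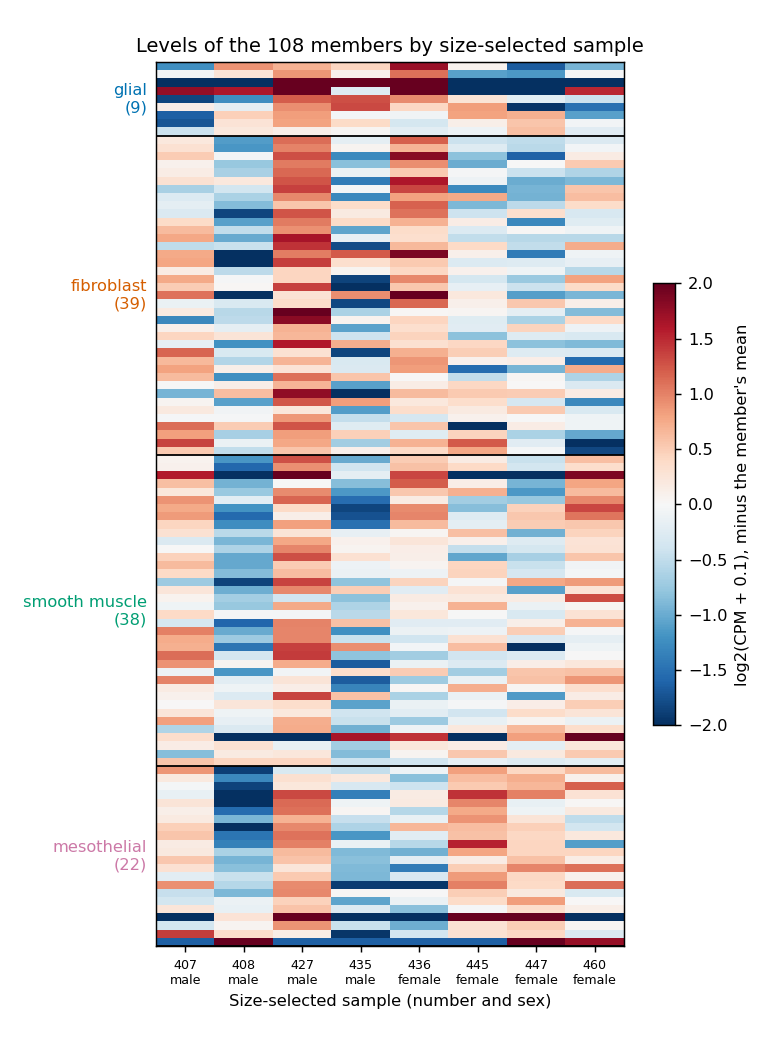
Level of each of the 108 members (rows) in each size-selected sample (columns, with number and sex), as log2(CPM + 0.1) minus the member's mean over the 8 samples; colours end at -2 and 2. Rows are grouped by the marker class with the highest r (9 glial, 39 fibroblast, 38 smooth muscle, 22 mesothelial), and sample 427 is the highest for 53 members.

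To find which cell type each member follows, its log2 CPM was correlated across the 8 size-selected samples with a score for each of 4 classes, the mean log2 CPM of the class's markers. The glial score (15 markers such as Sox10 and S100b) ran from 2.08 in sample 447 to 5.04 in sample 436. Fibroblast scores (12 markers such as Col1a2 and Dcn) were highest in 436 and 427, and the smooth muscle scores (10 markers such as Myh11 and Acta2) in 460 and 427. Mesothelial scores (10 markers such as Msln and Upk3b) were highest in 445 and lowest in 408. The fibroblast and smooth muscle scores rose and fell together (r = 0.76, n = 8), so these 2 classes were hard to tell apart. Glial and mesothelial scores had r = -0.58, and glial and fibroblast scores r = 0.58.

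No member followed a class by the exact two-sided permutation test over all pairings of the 8 samples, adjusted by the Benjamini-Hochberg method over 15261 genes and 4 scores, and neither did any other gene (0% called for each score). The smallest p this test can give is 2.48e-05, so at least 31 of the 61044 tests would need that value for a call. No marker passed either when tested against the rest of its own class. Before adjustment, 24 members had p under 0.05 and a positive r with the fibroblast score (22.2%, against 12.3% of all genes). The counts were 20 for smooth muscle (18.5% against 9.76%), 9 for mesothelial (8.33% against 2.12%) and 3 for glial (2.78% against 2.67%).

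The highest r of a member was with the fibroblast score for 39 members (36.1%), smooth muscle for 38 (35.2%), mesothelial for 22 (20.4%) and glial for 9 (8.33%). Over all genes tested these shares were 19.5%, 17.2%, 31.0% and 32.3%. The members' median r was 0.49 with the fibroblast, 0.47 with the smooth muscle, 0.22 with the mesothelial and 0.09 with the glial score, while over all genes the medians lay between -0.03 and 0.01. Named genes within the same count limits had medians of 0.58, 0.49, 0.13 and 0.26 for these scores. The class of a member was often a narrow choice, since for 46 members the highest and second r differed by less than 0.1. Leaving out sample 436, the highest in the glial score, or sample 460 kept the same class for 71 of the 108. The group sizes also rested on single samples. Without sample 436 the fibroblast group held 59 members and the smooth muscle group 20, and without sample 427 the mesothelial group held 40. The glial group held 20 members without sample 408 and 14 without sample 435. By rank correlation (Spearman) the glial group held 16 and the smooth muscle group 24.

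**Figure D3:**
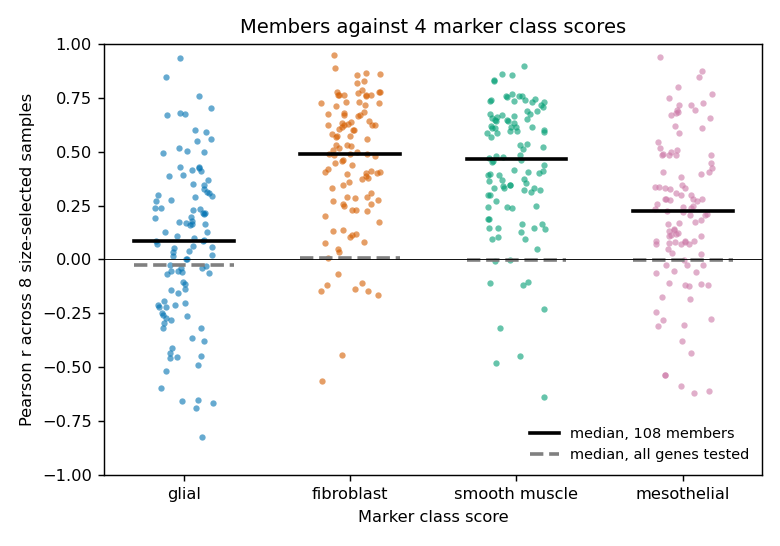
Pearson r across the 8 size-selected samples of each of the 108 members (points) with 4 marker class scores, with the median over members (solid line) and over all genes tested (dashed line). The members' medians are 0.49 for fibroblast, 0.47 for smooth muscle, 0.22 for mesothelial and 0.09 for glial scores.

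Scores of 10 other classes were set beside these 4. For 80 members (74.1%) the r with one of them was higher than the best of the 4, as it was for 78.7% of all genes tested, so this count is near the background. These were endothelial for 27 members, pericyte for 15, the dissociation response (immediate early and heat shock genes) for 13, sympathetic neuron for 9, megakaryocyte for 7, erythroid and macrophage for 4 each and B cell for 1. Endothelial and pericyte scores were thus the highest for 25.0% and 13.9% of the members, against 10.3% and 5.35% of all genes, and the B cell score for 0.926% against 25.6%. The shares were 12.0% against 5.03% for the dissociation response, 8.33% against 5.12% for sympathetic neuron and 6.48% against 3.20% for megakaryocyte. Erythroid and macrophage scores had 3.70% each, against 3.85% and 5.35%. The sympathetic neuron score rested on 3 of its 8 listed markers. With the dissociation response the fibroblast score itself had r = 0.81 and the glial score r = 0.73. The fibroblast score had r = -0.75 with the B cell score. The part of the dissociation response and B cell scores in the members' r was not tested.

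Gm2115 had the highest r of the members with the glial score. Its r was 0.94 (exact permutation p = 0.000174, adjusted p = 0.208, n = 8) and its Spearman rho 0.98 (exact permutation p = 0.000397), and r was 0.90 without the 2 samples farthest from the median score. It had 211 counts in sample 436 and 15 in sample 447, the samples with the highest and lowest glial scores. The marker it followed most closely was Cmtm5 (r = 0.98), a membrane protein gene of the chemokine-like factor family. Gm17167 (chr4:42206998-42235313, plus strand, processed transcript) followed with r = 0.85 (exact permutation p = 0.00439, adjusted p = 0.249) and rho = 0.93, and with r = 0.69 without the 2 farthest samples. It shares 26.0% of its exonic bases on the same strand with Gm13301, and 25.0% of its values above 0 were whole numbers. It was a low transcript with 0.277, 0.759 and 1.70 CPM as lowest, median and highest levels, and its closest marker was the potassium channel gene Kcna1 (r = 0.91). Gm45837, with r = 0.70 (exact permutation p = 0.0625, adjusted p = 0.412), rested on the 3 samples in which it was above 0.

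1200007C13Rik, a lincRNA with 2 exons (chr2:167827693-167833646, minus strand), had the highest r with the fibroblast score. Its r was 0.95 (exact permutation p = 0.000893, adjusted p = 0.226, n = 8) and its rho 0.86, and r was 0.76 without the 2 farthest samples. Its lowest, median and highest levels were 1.06, 2.04 and 5.69 CPM, all its counts were whole, and it was at 0 in every whole spleen sample. Samples 427 and 436 stood above the other 6. Its closest marker was Fbln1 (r = 0.95), which encodes the matrix protein fibulin-1, and Fbln1 was also closest to Gm48488 (r = 0.97). Gm48488 had r = 0.89 with the fibroblast score (exact permutation p = 0.00315, adjusted p = 0.241) and 0.77 without the 2 farthest samples. D630003M21Rik (chr2:158182533-158229222, minus strand, protein coding, 16 exons) had r = 0.87 with the fibroblast score (exact permutation p = 0.00637, adjusted p = 0.259), and 0.55 without the 2 farthest samples. Its levels were 0.555, 1.99 and 6.98 CPM, and its closest marker was the microfibril gene Mfap5 (r = 0.90).

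With the smooth muscle score, Gm12407, the copy of Ccl19, had r = 0.90 (exact permutation p = 0.00295, adjusted p = 0.240), but its closest marker was the fibroblast collagen gene Col1a1 (r = 0.95). Gm48878 (chr10:122454132-122456809, plus strand, 1 exon) had r = 0.86 (exact permutation p = 0.00422, adjusted p = 0.246) with levels of 0.456, 1.82 and 3.03 CPM. It followed Tagln, the gene of the contractile cell protein transgelin, with r = 0.96. Gm21451, the copy of Loxl2, had r = 0.86 (exact permutation p = 0.0116, adjusted p = 0.284), and its closest marker was the fibroblast receptor gene Pdgfra (r = 0.87). Of the 3, Gm48878 alone had a smooth muscle gene as its closest marker.

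1700071M16Rik, an antisense RNA (chr17:43588340-43592442, minus strand), had the highest r with the mesothelial score. Its r was 0.94 (exact permutation p = 0.00179, adjusted p = 0.230) and rho 0.81, and its closest marker was the uroplakin gene Upk3b (r = 0.90). Its levels were low, at 0.0761, 0.635 and 1.10 CPM, with 1 count in sample 408. E330017L17Rik, a lincRNA (chr4:129906216-129919787, plus strand), had r = 0.88 (exact permutation p = 0.00238, adjusted p = 0.237) with 0.304, 1.03 and 1.53 CPM, and followed Lrrn4 (r = 0.94). The zinc finger gene Gm14322 had r = 0.85 (exact permutation p = 0.0139, adjusted p = 0.296) and followed Upk1b (r = 0.89). Sample 408 had the lowest mesothelial score and the lowest level of all 3.

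**Figure D4:**
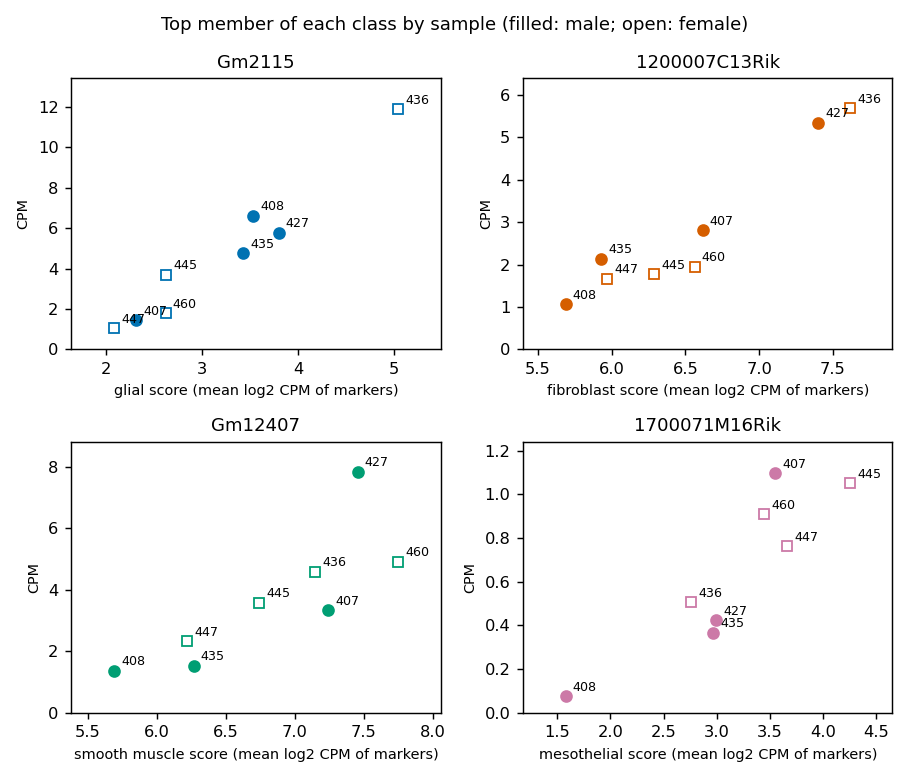
Level in CPM of the member with the highest r for each class against that class's score (mean log2 CPM of its markers) in the 8 size-selected samples, labelled by number; filled points are male and open points female. Gm2115 in sample 436, at 11.9 CPM, is the highest point of the glial panel.

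The remaining members are given by the class of their highest r. In the glial group these were Gm21541, 4930578C19Rik, Gm5454, 9930038B18Rik, Gm12002 and Gm10575, with r of 0.59 for Gm21541 down to -0.15 for Gm10575. Among them 4930578C19Rik, which RefSeq lists as Dipk2b, followed the glial transcription factor gene Sox10 most closely (r = 0.73). Below Gm2115 and Gm17167 the glial group thus ranged from r = 0.70 (Gm45837) to below 0. Gm21541 was at 0 in samples 445 and 447, where its near-identical copy Gm13304 had 57.55 and 52.43 counts. The part of this split between copies in its r was not tested. Gm5454, the copy of Etv1, had no whole-number values.

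In the fibroblast group 16 of 39 members had r above 0.7. Beside the 3 named above these were Gm42899, Gm39822, Gm13111, 3110039I08Rik, Gm21955, Gm19409, Gm1968, E030013I19Rik, Gm38391, Gm15998, A730049H05Rik, Gm26776 and Gm37783. Gm42899 had r = 0.85 with the score and r = 0.97 with Pdgfra, the receptor gene that marks many fibroblasts. Gm13111 and 3110039I08Rik, which RefSeq lists as Prdm16os and Mir100hg, fell from r = 0.79 to 0.17 and from 0.78 to 0.14 without the 2 samples farthest from the median score. The other 23 had r of 0.69 (Gm15270) to 0.27 (Gm13056), and 7 of them followed the glial marker Fabp7 most closely, namely Gm34829, Gm13861, 5033428I22Rik, Gm15912, 4430402I18Rik, Gm49378 and Gm13056.

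Of the 38 members in the smooth muscle group, 15 had r above 0.7. Those not yet named for this score were Gm11627, Gm13301, Gm5970, 5730507C01Rik, Gm15261, Gm38399, 5031415H12Rik, B130024G19Rik, Gm26883, Gm42679, Gm36569 and 9530026P05Rik. Gm13301 followed Tagln (r = 0.86), while 5730507C01Rik and Gm15261 followed the actin-binding protein gene Synpo2 (r = 0.92 and 0.90). Gm36569 and 9530026P05Rik followed Acta2, the gene of smooth muscle actin (r = 0.91 and 0.90), and kept r of 0.80 and 0.73 with the score without the 2 farthest samples. The lowest r of this group were 0.14 for Gm10791 and 0.05 for Gm10699.

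The mesothelial group held 22 members, 9 of them with r above 0.7. Beside the 3 named above these were Gm49442, Gm45714, Gm14418, Gm20467, Gm16192 and 2310030G06Rik, and none of these 6 kept an r above 0.4 without the 2 farthest samples. 2310030G06Rik and Gm16118 followed Wt1, a transcription factor gene of the mesothelium, with r = 0.96 each. The lowest r of this group were 0.18 for Gm10399 and -0.28 for Gm45062. 1010001N08Rik had r = 0.68 with the score, 0.86 without the 2 farthest samples, and followed Msln (r = 0.81). Over all 4 groups, 43 members (39.8%) had a highest r above 0.7, against 3047 of all 15261 genes tested and 52.3% of named genes within the same count limits. Without the 2 farthest samples 12 of the 43 (27.9%) stayed above 0.7, against 45.9% of all genes above that limit. Within the groups the members' share above 0.7 was 41.0% for fibroblast, 39.5% for smooth muscle, 40.9% for mesothelial and 33.3% for glial, where all genes had 48.5%, 35.6%, 6.82% and 7.04%.

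Single markers gave another view than class scores. The marker with the highest r was a fibroblast gene for 38 members, a mesothelial gene for 25, a smooth muscle gene for 23 and a glial gene for 22. These are 35.2%, 23.1%, 21.3% and 20.4% of the members, where all genes tested had 17.8%, 35.0%, 12.2% and 34.9%. Wt1 was closest to 13 members (12.0%, against 4.01% of all genes), Cxcl13 to 11 (10.2% against 4.4%) and Fabp7 to 10 (9.26% against 5.73%). These 3 markers followed the rest of their own class weakly, with r = 0.59 for Wt1 in the mesothelial, 0.49 for Cxcl13 in the fibroblast and 0.36 for Fabp7 in the glial class. Fabp7, a fatty acid binding protein gene of glia, had r = 0.98 with Gm13861 and r = 0.98 with Gm15912, neither of which had its highest r with the glial score. 1500015O10Rik followed Cxcl13, the B cell attracting chemokine of follicular stroma (r = 0.95, rho = 0.93), more closely than any class score. Each such marker was picked as the best of the 47 in use and is a description.

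A count model was added after the permutation test had called nothing, and it was chosen after seeing the data. edgeR's quasi-likelihood test of the counts on each score, with Benjamini-Hochberg adjustment over all genes, called 1 member higher with the glial score, where 0.328% of all genes were called. Gm2115 rose by 1.09 on the log2 scale per SD of the glial score (SE 0.18, adjusted p = 0.0327). It was not called without sample 407, 436, 447 or 460, and without 436 no gene was called for this score. With the fibroblast score 2 members were called, against 2.5% of all genes. 1200007C13Rik rose by 0.78 per SD of that score (SE 0.14, adjusted p = 0.0260) and D630003M21Rik by 1.00 (SE 0.21, adjusted p = 0.0389). No member was called with the smooth muscle score (0.144% of all genes) or with the mesothelial score (0%). An unadjusted p under 0.05, in either direction, was found for 8 members with the glial score (7.41%, against 4.2% of all genes), 26 with the fibroblast (24.1% against 27.0%), 19 with the smooth muscle (17.6% against 21.1%) and 7 with the mesothelial score (6.48% against 3.49%). By adjusted p, the members called with the fibroblast score were 0 without sample 427 or 447, 1 without 407, 408, 445 or 460, and 5 without 436. Of 15249 genes, 62, 145 and 1368 were called higher without 427, 447 and 436. With the smooth muscle score 3 members were called without 460, where 622 of 15251 genes were. In the fit of all 8 samples, the share of members called with the fibroblast score was no larger than that of all genes.

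Of the 3 called members, 2 have a promoter in the RefSeq table (GRCm38.p6), and the 250 bases before their start are shown to give the sequence context of these 2 loci. Capitals mark GGGCGG, the core of the GC box, on either strand. A site that overlaps one already marked was not marked, as beside the last marked site of D630003M21Rik. Gm2115 is at chr7:84528724-84528973 on the plus strand and D630003M21Rik at chr2:158229225-158229474 on the minus strand.
Gm2115: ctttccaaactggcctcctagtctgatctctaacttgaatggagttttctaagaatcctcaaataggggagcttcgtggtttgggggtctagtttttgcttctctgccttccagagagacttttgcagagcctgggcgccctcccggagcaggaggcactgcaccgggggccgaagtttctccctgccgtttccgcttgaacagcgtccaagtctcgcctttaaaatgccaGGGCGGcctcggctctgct
D630003M21Rik: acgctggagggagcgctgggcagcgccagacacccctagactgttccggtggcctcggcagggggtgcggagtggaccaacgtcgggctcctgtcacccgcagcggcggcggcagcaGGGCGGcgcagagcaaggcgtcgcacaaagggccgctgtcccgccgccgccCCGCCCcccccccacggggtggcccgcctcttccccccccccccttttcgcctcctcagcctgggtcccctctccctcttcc
The table holds promoters of 52 members by symbol, from 250 bases before to 50 after the start. GGGCGG on either strand was in 30.8% of them and in 38.2% of all 27025 genes with a promoter there, and TATAAA in 9.62% against 15.7%. ACAAT was in 28.8% against 34.4%. The CArG box of smooth muscle genes was in none of the 52 and in 1.81% of all genes.

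Each member was set beside the nearest named gene with a mean of at least 10 counts. That gene overlapped 51 of the 108 members, 40 of them on the opposite strand. That neighbour's mean count was at least 10 times as high in the size-selected as in the whole spleen samples for 55 members (50.9%), for 126 of 1380 other unnamed genes (9.13%) and for 15% of named genes with a mean of at least 10. It was lower in the size-selected samples for 9 members (8.33%) and for 38.5% of the other unnamed genes. This count shares its contrast with the choice of the members, and no test is given. No strand setting of the libraries is stated, so reads of a member and of a gene opposite to it cannot be told apart where their exons overlap, as they do for 37 members.

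Some neighbours, most of them transcription factor genes, are given as examples, picked after their values were seen and not counted against other neighbours. Gm20467, a lincRNA with 1.45, 2.88 and 5.33 CPM, lay 1700 bases from Nkx2-3, a homeobox gene needed for normal spleen formation, whose means were 794 and 27.5 counts in the 2 groups. 5033428I22Rik lay 7485 bases from Hand2 (means of 27.1 and 0.375 counts). A830082K12Rik and B130024G19Rik overlapped the nuclear receptor genes Nr2f1 (13.0 and 0.375) and Nr2f2 (373 and 12.8) on the opposite strand. 1010001N08Rik, listed as Gata6os in RefSeq, overlapped Gata6 (386 and 20.1), and Gm26883 overlapped Tshz2 (164 and 2.12). Gm26883 shares 99.2% of its exonic bases with exons on the other strand, so its counts are the less certain. The same limit applies to Gm26776 (98.6%), F930015N05Rik (86.4%), Gm49442 (75.8%) and Gm36569 (73.7%), wherever they are listed here. Gm17501 lay 331 bases from Cyr61, the gene of a secreted matrix protein.

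Across the 8 size-selected samples, the r of a member with its neighbour had a median of 0.44, against 0.13 over the other unnamed genes, and was above 0 for 83 of 108 and for 844 of 1380. It was 0.56 over the 51 overlapping members (0.17 over 638 other overlapping unnamed genes) and 0.21 over the 38 members more than 10 kb away (0.05 over 452). By the exact permutation test with Benjamini-Hochberg adjustment over 1488 unnamed genes, no member and no other unnamed gene followed its neighbour (0% called). Before adjustment, 20 members (18.5%) and 9.57% of the other unnamed genes had a positive r with p under 0.05.

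Gm48488 (chr13:60176682-60182862, plus strand, lincRNA) was closest to its neighbour, Gas1, a hedgehog co-receptor gene that it overlaps on the opposite strand, sharing exonic bases with it. Their r was 0.99 (exact permutation p = 4.96e-05, adjusted p = 0.0738, n = 8) and rho 0.98. Gm48488 had 0.481, 1.21 and 2.51 CPM as its lowest, median and highest levels and was at 0 in whole spleen, and Gas1 had means of 1029 and 11.4 counts. Limited to neighbours within 10 kb, where 998 genes were tested, Gm48488 alone was called. None of the size-selected values of Gm48488 was a whole number, so its reads were shared out with other transcripts. The part of Gas1 reads in this r was not tested. Gm5084, a lincRNA 28106 bases from Gas1, had r = 0.81. Gm48878, 680 bases from the vasopressin receptor gene Avpr1a on the same strand, had r = 0.91 (exact permutation p = 0.00104, adjusted p = 0.155). The next was the readthrough gene Gm20683 with Rhot2 (r = 0.90, rho = 0.71), with which it shares exons on the same strand. The values of Gm20683 were mostly not whole numbers. Then came 9630050E16Rik with the integrin adaptor gene Fermt2, which contains it (r = 0.90, rho = 0.79), and Gm15261 with Arhgap6 (r = 0.89, rho = 0.74).

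**Figure D5:**
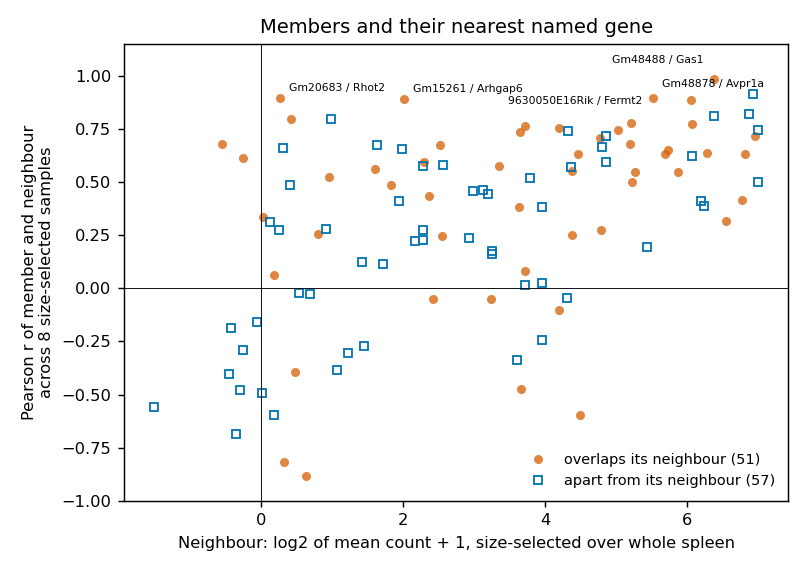
Pearson r of each member with its nearest named gene across the 8 size-selected samples (vertical axis) against the log2 ratio of that gene's mean counts plus 1, size-selected over whole spleen (horizontal axis). Filled points overlap the neighbour (51) and open points lie apart from it (57); the 5 highest r are labelled, led by Gm48488 and Gas1 at 0.99.

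Some members lay near each other. With gaps under 500 kb, 21 members fell into 7 groups, a description that was not set against other unnamed genes. The largest held 6 members at chr4:41791989-42719893, the region of the CCL19 and CCL21 genes, namely Gm12407, Gm21541, Gm13304, Gm17167, Gm13301 and Gm21955. Another held A730049H05Rik, 9530026P05Rik and Gm44220 at chr6:92816478-93272979. The first lies within the metalloprotease gene Adamts9, the next overlaps it on the opposite strand, and Gm44220 is 298228 bases away from it. The pair Gm1968 and 4632428C04Rik lay 85200 and 42954 bases from the Notch target Hes1. Their r with it was 0.58 and 0.28, and their rho 0.24 and 0.36.

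The sexes were compared within the size-selected samples, a contrast the choice of members did not use. By edgeR's quasi-likelihood test with Benjamini-Hochberg adjustment, none of the 96 members that passed the filter on low counts was called, and 6 of 15127 genes were (0.0397%). At an unadjusted p under 0.05 there was 1 of the 96 members, against 4.18% of all genes. That count was 0 of 102 without sample 460, where Gm4841 was highest, against 2.30% of all genes. Without sample 427 it was 5 of 98, against 12.0% of all genes. DESeq2 also called no member, and 22 of the 15127 genes. The 1 member by unadjusted edgeR p was Gm4841, an interferon-inducible GTPase family gene. It had 1.56 ± 0.760 CPM (SD, n = 4) in females and 0.757 ± 0.246 CPM in males. Its log2 difference, female minus male, was 1.05 (SE 0.44, edgeR adjusted p = 0.999). All 4 females were above the highest male, at 1.18 to 2.70 against 0.549 to 1.10 CPM. Gm4841 was picked for its smallest p, and how many members or genes separate in this way was not counted. The next 4 by p were Gm14322, 4430402I18Rik, Gm15050 and Gm10791, with log2 differences of 1.02, -0.82, 0.94 and 0.62 and edgeR adjusted p = 0.999 for each.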

How the data were processed

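RNA of 8 size-selected and 8 whole spleen samples was sequenced; strand settings and the annotation release are not given in the sources used here. Per the submitters' processing notes, Trim Galore, STAR, RSEM and DESeq and the build mm10 were used, with no versions. The deposited count table holds the authors' estimated counts (expected counts) per gene. In the size-selected columns 3898 genes carry further decimals, each a 2-decimal value multiplied by constants, 3 per column. This was found from the values, is not stated, and touches 4 members. A second table deposited by the authors gives TPM means per group, log2 fold changes and adjusted p-values per the file headers, used here as description.

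All IDs of the 108 members matched GENCODE M21 on GRCm38. Promoters came from RefSeq on GRCm38.p6. The members and the gene lists were chosen with earlier results of these data known. Named members are the 6 highest, the 3 highest r per class, the 3 largest and 3 smallest CV, the 3 nearest each limit, the 5 smallest p between the sexes and the 5 highest r with a neighbour. The neighbours, copies and clusters described beyond these were chosen after their values were seen.

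CPM values of single genes in the size-selected samples use TMM-scaled totals (edgeR 4.0.16, R 4.3.3), and log2 CPM a prior count of 2. Summed CPM of markers or members and the linear folds between the groups use total counts without TMM. Counts were rounded for edgeR. Class scores are means over markers with a mean of at least 10 counts. Similar transcripts were found with blastn 2.17.0. Calls have an adjusted p under 0.05. The scripts were tested on simulated data. Shared numbers pair the samples: after removing group means, same-numbered samples had r of 0.12 to 0.375 (mean 0.208, against -0.0287 for other pairs). The labels do not say that samples of a group come from separate cultures or days, so p-values measure the spread between these samples. Alternatives covered scaling, filters, prior counts, rank correlation, sex centring, divided-out constants and leaving out each number. DESeq2 1.42.0 was the alternative to edgeR.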

Additional observations from a re-analysis of the deposited data

Results flagged for a closer look

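With 31 named members and 4 class scores examined for a sample far from the other 7, 3 members stood out, and chance alone sets off about 1 in 20 such checks. Gm45837 reached 19.7 CPM in sample 435, with the next sample at 8.10 CPM and 5 samples at 0. Gm4841 reached 2.70 CPM in sample 460, with the next at 1.19 CPM. Gm20683 reached 3.23 CPM in sample 427, with the next at 1.42 CPM. Both Gm45837 and Gm20683 are readthrough genes whose values were mostly not whole numbers.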

How the results depend on the processing

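The number of members was 82 with a whole spleen mean of at most 1, 103 with limits on CPM of equal size, 108 with the constants divided out, and 38 with a size-selected mean of at least 20. By the permutation test no member was called for a marker class under any alternative run. With 7 samples at least 243 tests at the smallest p would be needed for a call, so those zeros are no sign of stability. Calls without the 2 samples farthest from the median score were not run, since 6 samples allow too few pairings for a call. For that setting only the r of single members is given. With any 1 number omitted, the class of the highest r was glial for 8 to 20 members, fibroblast for 28 to 59, smooth muscle for 20 to 48 and mesothelial for 18 to 40. The added edgeR fit gave 1 member for the glial and 2 for the fibroblast class. Over the same omissions it gave 0 to 1 glial, 0 to 5 fibroblast and 0 to 3 smooth muscle members. The genes called higher in these fits also moved, at 0 to 71 of 15246 for glial, 62 to 1368 of 15249 for fibroblast and 0 to 622 of 15251 for smooth muscle. The r of the 12 members named for a class, picked for their high r, ranged from 0.55 to 0.98. Over all members, 10 had a highest r at or below 0 without the 2 farthest samples. No member differed between the sexes under any alternative. Limited to neighbours within 10 kb, 1 member followed its neighbour. This was Gm48488, none of whose size-selected values was a whole number. The median log2 difference of the members, size-selected over whole spleen, was 5.55 over the 20 that passed the filter on low counts. It was 4.54 over all 108 with no filter, 5.61 with the replicate block that uses the pairing by number, and 5.24 to 5.90 without each number in turn. The block was run for this median alone. All these medians use the contrast that chose the members, so they are a description. Over the omissions 16 to 26 members passed the filter, through the group where they are high, so that range is no sign of stability. At the members' median of 16.3 counts per sample, counting error alone gives a CV of 24.8%, and its part in the r was not tested.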
